A study of Mus musculus with 34 samples.

Results

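Fibroblasts of mouse lymph node were compared with fibroblasts of inguinal fat, the subcutaneous depot of the groin. The comparison used the 3 libraries labelled sLN fibroblasts (region lymph node) and the 3 labelled inguinal adipose fibroblasts (region subcutaneous fat), chosen by title, out of 34 libraries in the series. In both groups the tissue was digested and cells that lacked CD45, CD31 and Epcam but carried PDPN and PDGFRA on their surface were sorted by flow cytometry straight into lysis reagent. Polyadenylated RNA was then sequenced. Both groups carry the label GFP-negative. The reporter behind that label, the strain, age and sex of the mice, the treatment and the number of mice behind a library are not given in the sources used here. Fibroblasts of 7 other tissues (spleen, omentum, mesentery, epididymal fat, brown fat, pancreas and bone-associated, 19 libraries) entered the same model. They share in its estimate of the spread and are otherwise used only to place the genes named below.

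Fibroblasts of lymphoid organs form the reticular scaffold on which lymphocytes move. They are known to secrete the homeostatic chemokines CCL19, CCL21, CXCL12 and CXCL13, which guide T cells, dendritic cells and B cells to their zones, and survival cytokines such as IL-7 and BAFF. Their maturation depends on lymphotoxin from immune cells, which acts through the lymphotoxin beta receptor and the alternative NF-kappaB pathway. Fibroblasts of subcutaneous fat include DPP4+ PI16+ interstitial progenitors and PPARG+ cells committed to the adipocyte lineage, and they deposit the collagen matrix of the depot.

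Total counts were 28651435 to 33339822 in the lymph node libraries and 34836748 to 36101005 in the inguinal libraries. Levels of single genes are given as CPM, counts scaled to the same total in every library after TMM normalization, so that 1 count was worth 0.0282 to 0.0356 CPM. Summed levels of gene lists are CPM without TMM normalization, whose factors ran from 0.891 to 1.108 in the 6 libraries. Levels are not corrected for gene length and are compared only within a gene or list. Pearson's r of log2 CPM across genes was 0.981 to 0.989 within the lymph node group, 0.985 to 0.99 within the inguinal group and 0.922 to 0.935 between them. The genes of the 2 positive sort markers overlapped between the groups: Pdgfra was at 1050, 817 and 1424 CPM in the lymph node libraries and at 850.5, 1016 and 1040 CPM in the inguinal ones, and Pdpn at 175, 196 and 364 against 234, 199 and 224 CPM. Ptprc, which encodes CD45, reached 4.43, 0.960 and 0.427 CPM in the lymph node and 0.374, 0.373 and 0.185 CPM in inguinal fat, Pecam1 (CD31) 1.38, 2.68 and 2.24 against 3.16, 5.13 and 13.0 CPM, and Epcam had 0 counts in the lymph node and at most 0.0311 CPM in inguinal fat. The groups did not overlap for Ptprc or Pecam1, as for 34.7% of all genes tested. Neither passed (2.63 ± 1.14, adjusted p = 0.109, and -1.75 ± 0.82, adjusted p = 0.141, as log2 differences by edgeR's quasi-likelihood test), but with the 6 libraries alone both did (2.69, adjusted p = 0.0324, and -1.71, adjusted p = 0.0277), and Ptprc also with DESeq2 (2.73, adjusted p = 0.0451). Ddx3y, on the Y chromosome, was read in all 6 libraries.

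Marker lists of other cell types were summed in each library. Of 7 mural (pericyte) markers 4 were higher and 1 lower in the lymph node, and the summed level was 1340, 1070 and 1270 CPM against 59, 64.1 and 49.8 CPM. Of 6 B and plasma cell markers 4 were higher, with sums of 21.5, 4.91 and 11.3 against 0.312, 0.471 and 0.172 CPM; Mzb1 had 0 counts in inguinal fat. Of 3 high endothelial venule markers Glycam1 was higher, with sums of 1.29, 0.626 and 6.53 against 0, 0.111 and 0 CPM. The inguinal libraries held more blood endothelial RNA (15.2, 15.3 and 37.3 against 6.06, 11.1 and 8.9 CPM, 3 of 7 markers called) and Schwann cell RNA (34.3, 31.1 and 54.2 against 13.2, 13.1 and 9.28 CPM, 3 of 4 tested markers called, Sox10 at 0 in both groups). The sum of the epithelial markers was 8.59, 9.39 and 8.64 in inguinal fat against 0.45, 0.344 and 0.454 CPM. Almost all of the inguinal sum came from the keratin gene Krt19, the single member called (8.94 ± 1.22 CPM after TMM normalization). The myeloid sums overlapped (19.3, 13.3 and 22.5 against 7.94, 8.06 and 20.8 CPM). The calls of 4 of these markers, besides the mural Itga7 treated below, were each lost when any of several libraries was left out. The weakest values among those fits were those of Glycam1 without lymph node library 3 (4.10, adjusted p = 0.149), Cd79a without lymph node library 1 (2.44, adjusted p = 0.122), Jchain without inguinal library 3 (7.12, adjusted p = 0.0985) and the endothelial Kdr without lymph node library 1 (-1.65, adjusted p = 0.171), as log2 differences by edgeR's quasi-likelihood test. Glycam1 was also not called with DESeq2 (5.69, adjusted p = 0.19), nor Kdr with the 25 fibroblast libraries only (-2.20, adjusted p = 0.0526). The part of these other cells in the results below was not tested.

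**Figure D1:**
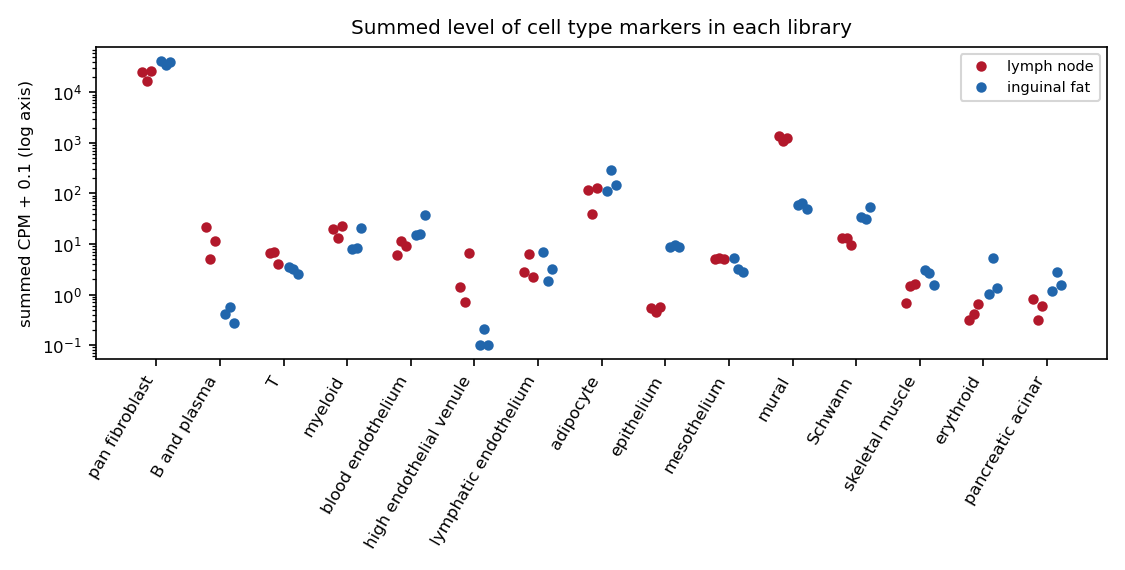
Summed CPM (without TMM normalization) of the markers of 15 cell types (horizontal axis) in each of the 6 libraries, on a log axis. Each point is 1 library, coloured by tissue. The mural sums lie at 1070 to 1340 CPM in the lymph node and at 49.8 to 64.1 CPM in inguinal fat, while the B and plasma cell and venule sums stay at or under 21.5 CPM in every library.

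The 2 fibroblast populations differed in 3865 of 25705 genes tested (15%), by edgeR's quasi-likelihood test at an adjusted p under 0.05 and a log2 difference of at least 1. Of these, 1983 (7.71%) were higher and 1882 (7.32%) lower in the lymph node. Each count of list members called below is to be read against these 2 shares. The median log2 difference over all genes tested was -0.048. In 8930 of the genes tested (34.7%) the libraries of the 2 groups did not overlap, so a lack of overlap given below is common. Every difference below is lymph node minus inguinal fat on the log2 scale, followed by its standard error and by the adjusted p from that test over all genes; a CPM followed by ± is a mean with its SD (n = 3 libraries a group). "Higher", "lower", "rose" and "fell" are used of genes that passed both limits. In sorted bulk RNA, fewer cells that express a gene and less of its RNA per cell cannot be told apart. The p-values rest on the spread between libraries of the same group, estimated over all 34 libraries of the series and not over the compared libraries alone. Nothing in the labels ties each library to a separate mouse, so this spread need not be that between mice.

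The genes that changed most were ranked among called genes with at least 20 CPM in the higher group and no overlap between the groups. Accession and clone names, such as Gm21541, and genes on the cell type marker lists were left out of the ranking. Among the 15 genes that rose most by this rule were 2 desmosomal cadherins and the leptin receptor. Dsc3, a desmosomal cadherin, was at 710.3, 946 and 436 CPM in the lymph node libraries and at 0.0575, 0.249 and 0.0308 CPM in the inguinal libraries, a log2 difference of 12.57 ± 1.38 (adjusted p = 1.88e-07). Its partner Dsc2, also a desmosomal cadherin, was at 292, 419 and 237 CPM in the lymph node libraries and at 0, 0.249 and 0 CPM in the inguinal libraries, a log2 difference of 11.87 ± 1.07 (adjusted p = 4.04e-09). Lepr, the leptin receptor, was at 1994, 987 and 1398 CPM in the lymph node libraries and at 1.29, 1.31 and 1.17 CPM in the inguinal libraries, a log2 difference of 10.18 ± 0.40 (adjusted p = 2.99e-17). Each of these genes was at or above 237 CPM in all 3 lymph node libraries and at or under 1.31 CPM in all 3 inguinal ones. Serpina10, an inhibitor of coagulation proteases, was at 454, 641 and 449 CPM in the lymph node libraries and at 0.575, 0.218 and 0.278 CPM in the inguinal libraries, a log2 difference of 10.47 ± 0.65 (adjusted p = 1.84e-12). Slc22a3, an organic cation transporter, was at 79.3, 69.3 and 63.7 CPM in the lymph node libraries and at 0.0575, 0 and 0.0925 CPM in the inguinal libraries, a log2 difference of 10.36 ± 1.09 (adjusted p = 3.99e-08). Extl1, a heparan sulphate glycosyltransferase, averaged 96.0 ± 10.1 CPM against 0.0795 ± 0.0434 CPM, and the tubulin gene Tuba8 54.8 ± 12.7 against 0.0413 ± 0.0358 CPM. The lymph node values of these genes lay far above every inguinal value, though the rule itself required that the groups not overlap.

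The apolipoprotein L gene Apol11a was at 52.0, 23.9 and 39.0 CPM in the lymph node and had 0 counts in inguinal fat, so it was at least 1250-fold higher when 3 counts over the inguinal group are taken as the floor. Crip3, a LIM domain protein gene, was at 26.3, 10.1 and 27.7 CPM against 0, at least 687-fold higher. Apol11b had 3 counts in inguinal fat, and its ratio of counts was 4180 (95% exact binomial interval 1430 to 20300). Sohlh2, a germ cell transcription factor gene, had 1 count in inguinal fat and a ratio of 2070 (95% exact binomial interval 371 to 81800). Such intervals cover counting error only, and a fitted log2 value for a gene with so few counts depends on the prior count. The transcripts of Apol11a and Apol11b are 93.9% identical over their alignment, so the split of reads between them is uncertain.

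Among the 15 genes that fell most by the same rule were Cd36 and Fabp4, both of fatty acid handling. Cd36, the fatty acid transporter, was at 12.7, 8.19 and 9.04 CPM in the lymph node libraries and at 300.3, 576 and 422 CPM in the inguinal libraries, a log2 difference of -5.44 ± 0.69 (adjusted p = 1.34e-06). Fabp4, the fatty acid binding protein of adipocytes, was at 11.2, 4.18 and 4.02 CPM in the lymph node libraries and at 182, 407 and 239.9 CPM in the inguinal libraries, a log2 difference of -5.42 ± 0.66 (adjusted p = 5.29e-07). Akr1c18, a progesterone-metabolising reductase, was at 1.35, 2.40 and 2.38 CPM in the lymph node libraries and at 127, 112 and 117 CPM in the inguinal libraries, a log2 difference of -5.85 ± 0.83 (adjusted p = 5.87e-06). All 3 lymph node values of each gene were below all 3 inguinal values, as the rule required. Dmkn, dermokine, was at 0.492, 0.536 and 0.391 CPM in the lymph node libraries and at 34.7, 21.4 and 40.2 CPM in the inguinal libraries, a log2 difference of -6.06 ± 0.49 (adjusted p = 1.5e-10). Il18r1, a chain of the interleukin-18 receptor, was at 0.584, 0.536 and 1.21 CPM in the lymph node libraries and at 40.3, 27.9 and 33.6 CPM in the inguinal libraries, a log2 difference of -5.46 ± 0.46 (adjusted p = 2.19e-10). Ptgis, prostacyclin synthase, was at 5.04, 5.25 and 3.98 CPM in the lymph node libraries and at 118, 125 and 118 CPM in the inguinal libraries, a log2 difference of -4.66 ± 0.21 (adjusted p = 7.55e-16). Ptgis had the smallest standard error of these 6 differences. Sult1e1, the oestrogen sulphotransferase (-4.93 ± 0.53), Fgl2, a fibrinogen-like secreted protein (-4.83 ± 0.34), Lgals3, galectin-3 (-4.68 ± 0.36), and Pcdh20, a protocadherin (-4.64 ± 0.47), fell as well (adjusted p = 4.03e-08, 6.65e-12, 4.39e-11 and 1.1e-08).

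**Figure D2:**
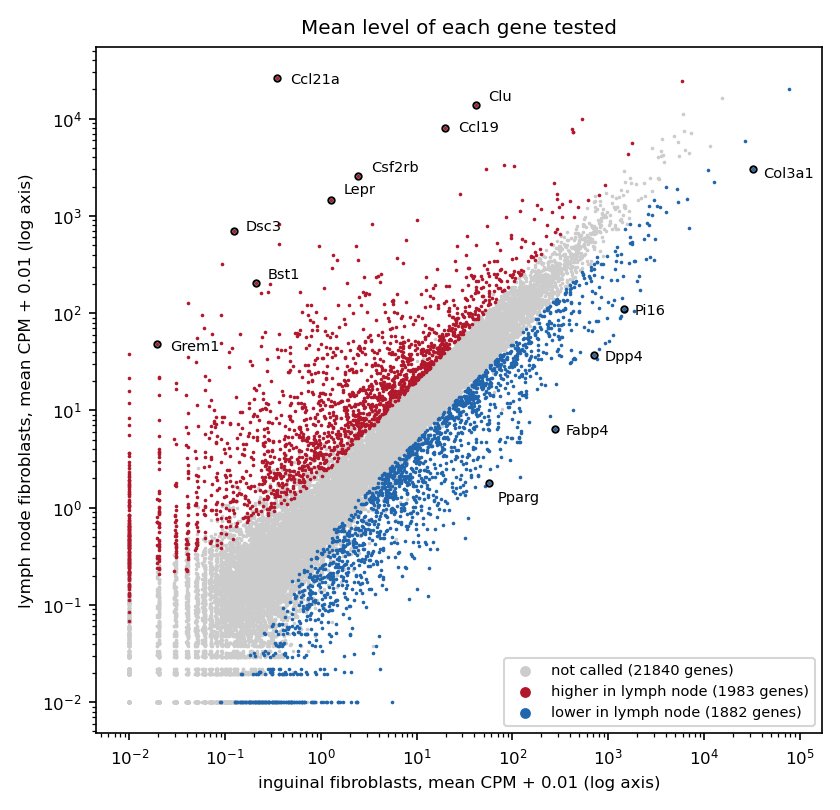
Mean CPM of each of the 25705 genes tested in inguinal fibroblasts (horizontal, log axis) and lymph node fibroblasts (vertical, log axis), with the 1983 genes called higher and the 1882 called lower in the lymph node coloured. Ccl21a, Ccl19, Clu, Csf2rb and Lepr average from 1460 to 25980 CPM in the lymph node while lying at 41.2 CPM or less in inguinal fat, and Col3a1 is the highest labelled gene on the inguinal side.

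The homeostatic chemokines were higher in the lymph node, and Ccl21a had the largest fitted difference of all named genes. Ccl21a (ENSMUSG00000094686, chr4:42772860-42773993 on GRCm38, minus strand, GENCODE M21), which encodes the CCR7 ligand that draws T cells and dendritic cells, was at 19990, 28190 and 29780 CPM in the lymph node libraries and at 0.805, 0.0622 and 0.154 CPM in the inguinal ones. Its log2 difference was 16.18 ± 2.68 (adjusted p = 7.36e-05). Ccl19 (ENSMUSG00000071005, chr4:42754525-42756577, minus strand), the other CCR7 ligand, was at 5799, 7610 and 10590 CPM against 14.9, 28.1 and 16.6 CPM (8.65 ± 1.0, adjusted p = 3.56e-07). Both ligands were at or under 28.1 CPM in every inguinal library and at or above 5799 CPM in every lymph node library. Cxcl12, the CXCR4 ligand, was at 9210, 8935 and 5343 CPM in the lymph node libraries and at 448, 372 and 442 CPM in the inguinal libraries, a log2 difference of 4.22 ± 0.45 (adjusted p = 2.52e-08). Cxcl13 (ENSMUSG00000023078, chr5:95956951-95961068, plus strand), the B cell attractant, was at 1164, 664 and 1899 CPM against 312, 264 and 337 CPM (2.03 ± 0.50, adjusted p = 0.00394). Cxcl13 had the smallest difference of the 4, and the inguinal libraries held at least 264 CPM of it. All 4 of the 4 chemokines tested were higher in the lymph node, against 7.71% of all genes, with a median of 6.44; Ccl21b did not pass the filter on low counts.

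Near-identical copies share reads in this family. Gm21541, the gene RefSeq names Ccl21d, was at 539, 1215 and 746 CPM against 0.201, 0.436 and 0.432 CPM, and its transcript differs from that of Ccl21a in 6 of 870 aligned positions. Ccl19-ps1, a pseudogene, was at 70.2, 113 and 104 CPM against 0.144, 0 and 0 CPM and differs from Ccl19 in 3 of 325 aligned positions. How the reads divide between the copies is uncertain, while the sum over the copies of each ligand is high in the lymph node whichever way they divide.

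The stretch before the start of these genes is shown because it is where the alternative NF-kappaB factors are known to act on them, and because the 2 Ccl21 copies can be set side by side. The sequences are from RefSeq (GRCm38.p6), the 250 bases or fewer before each start, 5′ to 3′ on the gene's strand, ending before the GENCODE gene where that begins earlier. Capitals mark ATAAAT, a motif like the TATA box, or a kappaB-type motif, GGG and TTTCC parted by any 2 bases, which in Madcam1 lies on the opposite strand and so appears as its reverse complement. Ccl21a (chr4:42773994-42774241, minus strand), Ccl21d (chr4:41903363-41903609, plus strand), Cxcl13 (chr5:95956689-95956938, plus strand) and Madcam1 (chr10:79664309-79664558, plus strand), the last the gene of a mucosal addressin, read:
Ccl21a: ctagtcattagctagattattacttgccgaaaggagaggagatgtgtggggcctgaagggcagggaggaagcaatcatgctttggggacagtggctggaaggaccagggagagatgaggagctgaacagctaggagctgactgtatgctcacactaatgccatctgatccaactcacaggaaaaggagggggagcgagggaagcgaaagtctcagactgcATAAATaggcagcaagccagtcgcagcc
Ccl21d: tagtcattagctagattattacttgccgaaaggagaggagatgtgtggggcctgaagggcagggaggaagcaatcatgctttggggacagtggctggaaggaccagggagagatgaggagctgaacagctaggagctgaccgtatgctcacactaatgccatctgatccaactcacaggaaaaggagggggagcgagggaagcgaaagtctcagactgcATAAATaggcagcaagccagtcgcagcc
Cxcl13: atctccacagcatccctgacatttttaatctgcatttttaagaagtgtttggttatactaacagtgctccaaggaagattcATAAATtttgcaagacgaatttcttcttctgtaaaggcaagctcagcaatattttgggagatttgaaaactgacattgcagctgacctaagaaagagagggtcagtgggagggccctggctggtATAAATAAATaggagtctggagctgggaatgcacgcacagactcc
Madcam1: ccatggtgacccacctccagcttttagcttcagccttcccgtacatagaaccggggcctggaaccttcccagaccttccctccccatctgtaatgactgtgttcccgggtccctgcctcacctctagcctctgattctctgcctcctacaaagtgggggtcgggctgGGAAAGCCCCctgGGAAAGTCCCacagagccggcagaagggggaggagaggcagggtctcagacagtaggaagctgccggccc

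The 2 Ccl21 stretches differed at 1 of 247 aligned positions, and both hold ATAAAT, beginning at -30 (counted back from the RefSeq start) in Ccl21a and at -31 in Ccl21d. Cxcl13 holds it at -169, -45 and -41, the last pair overlapping, and Ccl19 at -189. Madcam1 holds the kappaB-type motif on the minus strand at -83 and -70. Searched on both strands, ATAAAT was in 12.5% of 32851 RefSeq promoters of the same length and the kappaB-type motif in 1.41%. Of 59 chemokine, cytokine, adhesion and NF-kappaB genes searched, 44 had an entry, 7 of which held ATAAAT and 8 the kappaB-type motif (Il6, Csf1, Madcam1, Traf3, Nfkb2, Rel, Nfkbia and Tnfaip3). The 2 motifs were chosen with these results known, and a match describes the letters of the window. No other form of NF-kappaB site was searched for. A stretch without the kappaB-type motif, such as that of Cxcl13, may therefore hold sites that are not marked.

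Of 14 genes, 13 of cytokines that sustain lymphocytes, myeloid cells or innate lymphoid cells and 1 of the interleukin-33 receptor (Il1rl1), 7 were higher in the lymph node and 7 did not pass (median 1.31). Il7, the survival factor of T cells and innate lymphoid cells, was at 144, 184 and 110.3 CPM in the lymph node libraries and at 1.95, 3.67 and 1.79 CPM in the inguinal libraries, a log2 difference of 5.88 ± 0.46 (adjusted p = 6.01e-11). Tnfsf13b, which encodes the B cell survival factor BAFF, was at 273, 261 and 295 CPM in the lymph node libraries and at 23.0, 30.4 and 24.5 CPM in the inguinal libraries, a log2 difference of 3.41 ± 0.21 (adjusted p = 2.41e-13). Il33, an alarmin stored in stromal nuclei, was at 1267, 1223 and 1924 CPM in the lymph node libraries and at 164, 95.5 and 119.8 CPM in the inguinal libraries, a log2 difference of 3.54 ± 0.27 (adjusted p = 1.66e-11). Each was several-fold or more higher in every lymph node library than in any inguinal one. Tnfsf11, which encodes RANKL, was at 7.35, 6.95 and 9.28 CPM against 0, 0.0311 and 0 CPM, with 1 inguinal count and a ratio of counts of 772 (95% exact binomial interval 138 to 30500). Kitl, stem cell factor, was at 262, 216 and 208 CPM in the lymph node libraries and at 104, 116 and 103 CPM in the inguinal libraries, a log2 difference of 1.09 ± 0.18 (adjusted p = 2.25e-05). Il34, a ligand of the CSF1 receptor, was at 61.8, 68.0 and 53.5 CPM in the lymph node libraries and at 21.1, 17.5 and 25 CPM in the inguinal libraries, a log2 difference of 1.53 ± 0.20 (adjusted p = 4.89e-07). Flt3l, the dendritic cell growth factor, was at 17.3, 19.0 and 19.4 CPM in the lymph node libraries and at 4.37, 5.01 and 6.04 CPM in the inguinal libraries, a log2 difference of 1.85 ± 0.30 (adjusted p = 1.54e-05). The groups did not overlap for any of these, as for 34.7% of all genes tested, but the differences were smaller than those of Il7 or Tnfsf11. Without lymph node library 1 the Kitl difference was 0.98, adjusted p = 0.000354, just under the limit on size. The genes that did not pass were Csf1 (-0.69 ± 0.35), Il6 (-0.95 ± 0.48), Il1rl1 (-1.71 ± 0.81), Il15 (-0.59 ± 0.27), Tslp (0.81 ± 0.37), Lif (0.17 ± 0.36) and Tnfsf14 (4.72 ± 2.29), with adjusted p from 0.123 to 0.819. Il1rl1 passed with the 6 libraries alone (-1.66, adjusted p = 0.011) and Tnfsf14 without a filter on low counts (4.74, adjusted p = 0.0278). Il6 was at 76.2, 57.3 and 44.5 CPM in the lymph node and 192, 69.0 and 83.7 CPM in inguinal fat, with overlapping groups.

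Adhesion molecules and enzymes of the lymphoid niche were mostly higher in the lymph node: of 15 genes 10 were higher and 3 lower (median 3.02). Vcam1, the integrin ligand of reticular cells, was at 2473, 2414 and 1631 CPM in the lymph node libraries and at 274, 291 and 240.4 CPM in the inguinal libraries, a log2 difference of 3.02 ± 0.35 (adjusted p = 8.21e-08). Madcam1, the addressin found on marginal reticular cells, was at 4.67, 12.7 and 5.87 CPM in the lymph node libraries and at 0.201, 0 and 0 CPM in the inguinal libraries, a log2 difference of 6.73 ± 1.27 (adjusted p = 0.000195). Bst1, the ectoenzyme BP-3 of T zone reticular cells, was at 190.5, 252 and 167 CPM in the lymph node libraries and at 0.345, 0.218 and 0.0308 CPM in the inguinal libraries, a log2 difference of 9.96 ± 0.74 (adjusted p = 4.39e-11). Madcam1 stayed at or under 12.7 CPM in the lymph node but had counts in 1 inguinal library alone. Enpp2, autotaxin, which makes lysophosphatidic acid, was at 11070, 5136 and 13160 CPM in the lymph node libraries and at 448, 554 and 611 CPM in the inguinal libraries, a log2 difference of 4.19 ± 0.29 (adjusted p = 2.07e-12). Mfge8, a milk fat globule protein of follicular dendritic cells and their precursors, was at 7300, 8896 and 5753 CPM in the lymph node libraries and at 354, 518 and 416 CPM in the inguinal libraries, a log2 difference of 4.09 ± 0.21 (adjusted p = 8.28e-15). Ch25h, cholesterol 25-hydroxylase, was at 36.4, 64.1 and 42.2 CPM in the lymph node libraries and at 1.61, 0.280 and 1.11 CPM in the inguinal libraries, a log2 difference of 5.56 ± 0.62 (adjusted p = 4.38e-08). Ch25h and Cyp7b1 make the oxysterol that EBI2 on B cells follows, and Cyp7b1 rose by less (1.75 ± 0.30, adjusted p = 4.28e-05). Grem1, a BMP antagonist, was at 32.0, 67.7 and 43.5 CPM in the lymph node with 1 count in inguinal fat, a ratio of 4820 (95% exact binomial interval 865 to 191000). Coch, cochlin (3.33 ± 0.55, adjusted p = 2.52e-05) and Cd44, the hyaluronan receptor (1.38 ± 0.25, adjusted p = 9.24e-05) were the other genes that rose.

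The 3 genes of this group that fell are surface proteins of adventitial and progenitor fibroblasts. Cd34, a sialomucin, was at 334, 303 and 436 CPM in the lymph node libraries and at 2440, 2398 and 2575 CPM in the inguinal libraries, a log2 difference of -2.79 ± 0.22 (adjusted p = 3.44e-11). Ly6a, which encodes Sca-1, was at 428, 387 and 238 CPM in the lymph node libraries and at 2830, 3072 and 3117 CPM in the inguinal libraries, a log2 difference of -3.10 ± 0.31 (adjusted p = 4.29e-09). Thy1, which encodes CD90, was at 0.922, 2.46 and 3.06 CPM in the lymph node libraries and at 33.5, 38.7 and 39.0 CPM in the inguinal libraries, a log2 difference of -4.11 ± 0.39 (adjusted p = 1.58e-09). Thy1 was at or under 3.06 CPM in all lymph node libraries and at or above 33.5 CPM in all inguinal ones. Icam1 did not pass (0.97 ± 0.40, adjusted p = 0.0855), at 538, 559 and 231 CPM against 285, 228 and 167 CPM, and passed without lymph node library 3 (1.28, adjusted p = 0.0295). Cr2, the complement receptor of follicular dendritic cells, did not pass either (1.04 ± 1.01, adjusted p = 0.531). Its levels were 1.54, 8.47 and 4.94 CPM against 0.919, 5.73 and 0.617 CPM. Part of Bst1 overlaps Fbxl5 on the opposite strand, whose counts came to 87.2% of those of Bst1 over the 6 libraries, and whether the counting used strand is not given in the sources used here.

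In the lymphotoxin and TNF receptor to NF-kappaB pathway, 11 of 23 genes were higher in the lymph node and 12 did not pass (median 0.84). Neither of the main receptors passed: Ltbr was at 44.8, 56.0 and 69.7 CPM against 66.0, 74.7 and 65.5 CPM (-0.27 ± 0.24, adjusted p = 0.491) and Tnfrsf1a at 249, 303 and 163 against 180.5, 258 and 196 CPM (0.17 ± 0.21, adjusted p = 0.63), with overlapping groups for both. Cd40 stayed between 0.615 and 1.40 CPM in all 6 libraries (-0.32 ± 0.49, adjusted p = 0.723). Tnfrsf1b, the second TNF receptor, was at 80.5, 143 and 47.2 CPM against 44.3, 45.2 and 41.5 CPM (1.05 ± 0.31, adjusted p = 0.014). This call was lost without lymph node library 2 (0.55, adjusted p = 0.219) and without inguinal library 3 (1.01, adjusted p = 0.0521).

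Below the receptors, adaptors and ubiquitin ligases rose. Traf1, an adaptor that NF-kappaB itself induces, was at 43, 39.9 and 27.7 CPM in the lymph node libraries and at 0.690, 2.46 and 1.05 CPM in the inguinal libraries, a log2 difference of 4.72 ± 0.44 (adjusted p = 9.69e-10). Birc2, the ubiquitin ligase cIAP1, was at 315, 393 and 235 CPM in the lymph node libraries and at 58.6, 46.2 and 47.9 CPM in the inguinal libraries, a log2 difference of 2.63 ± 0.20 (adjusted p = 2.33e-11). Traf2, its partner adaptor (2.03 ± 0.22, adjusted p = 2.36e-08), Birc3, which encodes cIAP2 (1.68 ± 0.40, adjusted p = 0.00251) and Map3k14, the kinase NIK of the alternative pathway (1.76 ± 0.26, adjusted p = 4.64e-06) rose too. Traf3, which marks NIK for destruction, did not pass (0.42 ± 0.24, adjusted p = 0.241). Of the transcription factors, Relb, the factor of the alternative pathway, was at 19.1, 19.1 and 11.3 CPM in the lymph node libraries and at 5.46, 3.98 and 4.78 CPM in the inguinal libraries, a log2 difference of 1.80 ± 0.28 (adjusted p = 1.1e-05). Nfkb2, which encodes its p100/p52 partner, was at 25.1, 44.3 and 15.1 CPM in the lymph node libraries and at 11.1, 9.52 and 10.2 CPM in the inguinal libraries, a log2 difference of 1.46 ± 0.38 (adjusted p = 0.00507). Without lymph node library 2 the Nfkb2 difference was 0.97, adjusted p = 0.0773. The factors of the classical pathway did not reach the limit on size: Nfkb1 at 0.74 ± 0.20 (adjusted p = 0.00632), Rela at 0.39 ± 0.16 (adjusted p = 0.0824) and Rel at 0.84 ± 0.47 (adjusted p = 0.227). Rel passed without inguinal library 1 (1.45, adjusted p = 0.0484). Feedback inhibitors rose, namely Tnfaip3, which encodes A20 (3.13 ± 0.49, adjusted p = 1.69e-05), and Nfkbie, IkappaB epsilon (3.56 ± 0.36, adjusted p = 4.52e-09). Bcl3, a nuclear IkappaB, rose too (1.74 ± 0.41, adjusted p = 0.00204). Nfkbia, IkappaB alpha, did not (-0.44 ± 0.33, adjusted p = 0.408).

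**Figure D3:**
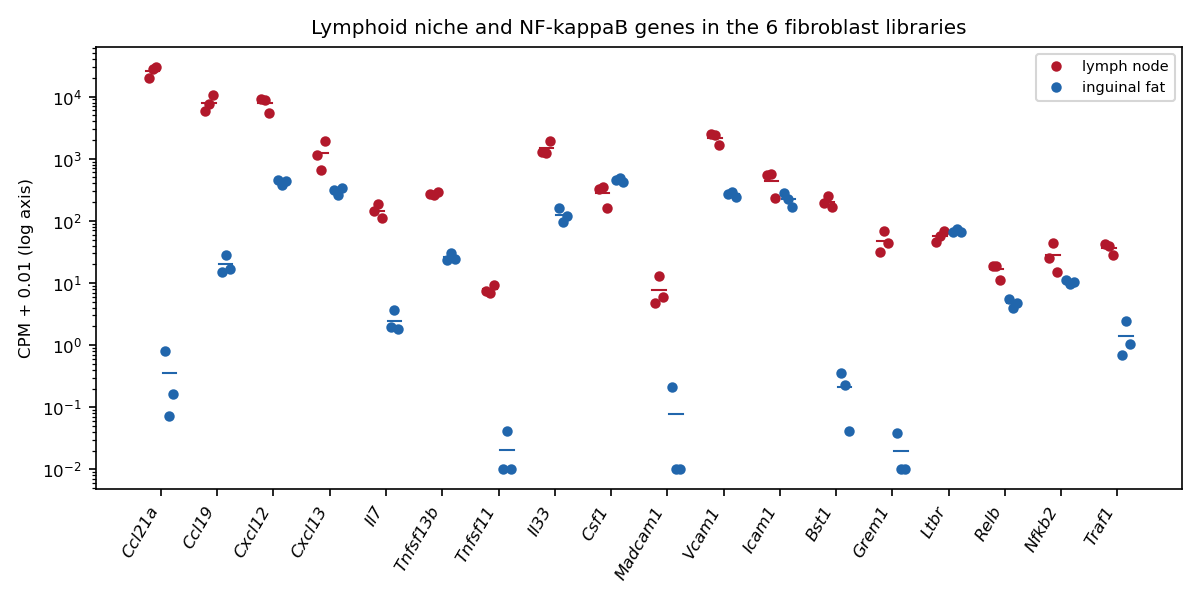
CPM on a log axis of 18 chemokine, cytokine, adhesion and NF-kappaB genes (horizontal axis) in the 3 lymph node and 3 inguinal libraries; points are libraries and short bars group means. Ccl21a, Bst1, Grem1 and Tnfsf11 separate the groups most widely, while Ltbr and Icam1 overlap and Csf1 lies lower in the lymph node without passing the test.

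Of 12 Notch pathway genes 5 were higher in the lymph node (median 1.21). Dll4, the Notch ligand that acts on T and B cells, was at 21.3, 37.8 and 14.7 CPM in the lymph node libraries and at 0, 0.124 and 1.20 CPM in the inguinal libraries, a log2 difference of 5.79 ± 1.26 (adjusted p = 0.00112). Notch3, the Notch receptor of perivascular cells, was at 27.5, 38 and 21.7 CPM in the lymph node libraries and at 2.85, 3.83 and 3.61 CPM in the inguinal libraries, a log2 difference of 3.08 ± 0.39 (adjusted p = 3.27e-07). Jag1, another Notch ligand, was at 76.7, 68.8 and 265 CPM in the lymph node libraries and at 66.2, 54.0 and 49.3 CPM in the inguinal libraries, a log2 difference of 1.28 ± 0.33 (adjusted p = 0.00464). Lymph node library 3 held the highest Jag1 level, and without it the difference was not called (0.37, adjusted p = 0.361). The receptor gene Notch1 (1.89 ± 0.40, adjusted p = 0.000554) and the target gene Hey2 (6.74 ± 1.31, adjusted p = 0.000239) were also higher, Hey2 at no more than 2.29 CPM.

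Of 17 antigen presentation genes 8 were higher in the lymph node and 9 did not pass (median 1.19). Most of those that rose belong to the class II pathway. Cd74, the invariant chain, was at 475, 344 and 879 CPM in the lymph node libraries and at 2.30, 7.31 and 13.6 CPM in the inguinal libraries, a log2 difference of 6.19 ± 0.96 (adjusted p = 2.54e-05). H2-Ab1, a class II beta chain, was at 91.7, 96.3 and 69.9 CPM in the lymph node libraries and at 0.776, 2.12 and 2.28 CPM in the inguinal libraries, a log2 difference of 5.64 ± 0.69 (adjusted p = 6.42e-07). H2-DMb1, a chain of the peptide exchanger, was at 37.5, 36.5 and 39.3 CPM in the lymph node libraries and at 3.51, 5.48 and 7.03 CPM in the inguinal libraries, a log2 difference of 2.82 ± 0.35 (adjusted p = 2.25e-07). Every lymph node value of these genes exceeded every inguinal value. H2-Aa (3.87 ± 0.82), H2-Eb1 (2.11 ± 0.44) and H2-DMa (3.46 ± 0.62) rose too (adjusted p = 0.000949, 0.000644 and 8.48e-05), though H2-DMa overlaps Brd2 on the other strand. Ciita, the class II transactivator, was at 0.891, 1.38 and 0.996 CPM against 0.345, 0.124 and 0.308 CPM and did not pass (2.05 ± 0.76, adjusted p = 0.0531). The class I genes H2-K1 (0.08 ± 0.18), H2-D1 (-0.07 ± 0.19) and B2m (0.33 ± 0.20) did not pass (adjusted p = 0.825, 0.847 and 0.275), while their regulator Nlrc5 rose (1.55 ± 0.45, adjusted p = 0.0126). Nlrc5 lost its call without lymph node library 2 (1.37, adjusted p = 0.0523) or inguinal library 2 (1.29, adjusted p = 0.0787). Ciita passed in 8 of the 14 alternatives, DESeq2 (2.11, adjusted p = 0.0265) and the 6 libraries alone (2.10, adjusted p = 0.016) among them. B and plasma cell markers, which sum to 4.91 to 21.5 CPM in the lymph node, moved the same way. Their part in the class II levels was not tested.

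Of 19 interferon-stimulated genes 5 were lower and 1 higher in the lymph node, against 7.32% and 7.71% of all genes (median -0.69). Ifit1, an RNA-binding effector, was at 26.2, 15.1 and 18.1 CPM in the lymph node libraries and at 106, 76.7 and 106 CPM in the inguinal libraries, a log2 difference of -2.28 ± 0.36 (adjusted p = 1.65e-05). Irf7, the factor that amplifies the type I response, was at 50.8, 35.2 and 36.7 CPM in the lymph node libraries and at 156, 105 and 138 CPM in the inguinal libraries, a log2 difference of -1.70 ± 0.29 (adjusted p = 3.38e-05). Rsad2 (-1.74 ± 0.51), Isg15 (-1.05 ± 0.32) and Ifit2 (-1.19 ± 0.26) fell as well (adjusted p = 0.0147, 0.0163 and 0.000755). Usp18, the protease that removes ISG15, was at 450.0, 276 and 447 CPM in the lymph node libraries and at 148, 152 and 168 CPM in the inguinal libraries, a log2 difference of 1.32 ± 0.29 (adjusted p = 0.0011). Usp18 thus rose while Isg15 fell. Of the genes called lower, 3 depended on single libraries. Rsad2 lost its call without lymph node library 3 (-1.51, adjusted p = 0.0845) or inguinal library 1 (-1.44, adjusted p = 0.0773), and Isg15 without lymph node library 2 (-0.93, adjusted p = 0.0738) or 3 (-0.91, adjusted p = 0.0899) and with DESeq2 (-0.99, adjusted p = 0.0149). Without lymph node library 3 the Ifit2 difference was -0.94, adjusted p = 0.0119.

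Of 15 complement genes 5 were higher and 3 lower, against 7.71% and 7.32% of all genes (median 0.79). C3, the central component, was at 27910, 25530 and 19260 CPM in the lymph node libraries and at 5472, 5922 and 6470 CPM in the inguinal libraries, a log2 difference of 2.02 ± 0.20 (adjusted p = 4.19e-09). C4b, a component of the classical pathway, was at 5979, 6149 and 4756 CPM in the lymph node libraries and at 1453, 2157 and 1711 CPM in the inguinal libraries, a log2 difference of 1.67 ± 0.28 (adjusted p = 4.12e-05). No inguinal library reached a lymph node level for either gene. C2 (1.57 ± 0.17, adjusted p = 1.72e-08) and the low-level Cfi (6.11 ± 1.48, adjusted p = 0.00332) also rose. Cd55, the decay-accelerating factor on the cell surface, was at 41.7, 58.8 and 38.8 CPM in the lymph node libraries and at 357, 272 and 329 CPM in the inguinal libraries, a log2 difference of -2.78 ± 0.20 (adjusted p = 3.42e-12). C7 (-1.81 ± 0.36, adjusted p = 0.000377) and C6 (-2.85 ± 0.83, adjusted p = 0.0118), of the membrane attack complex, fell. The C6 call was lost without lymph node library 1 (-2.39, adjusted p = 0.0704) or 2 (-2.30, adjusted p = 0.0657).

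Of 14 inflammatory chemokines tested 4 were higher and 2 lower, against 7.71% and 7.32% of all genes (median 0.87). Cxcl16, the CXCR6 ligand, was at 447, 332 and 404 CPM in the lymph node libraries and at 31.8, 33.7 and 33.8 CPM in the inguinal libraries, a log2 difference of 3.57 ± 0.22 (adjusted p = 1.97e-13). Cxcl9, an interferon-induced CXCR3 ligand, was at 66.7, 63.3 and 135 CPM in the lymph node libraries and at 34.4, 21.6 and 25.1 CPM in the inguinal libraries, a log2 difference of 1.71 ± 0.37 (adjusted p = 0.000949). Cxcl5, a neutrophil attractant, was at 144, 184 and 34.8 CPM in the lymph node libraries and at 2.47, 1.28 and 0.740 CPM in the inguinal libraries, a log2 difference of 6.33 ± 0.99 (adjusted p = 2.75e-05). Lymph node library 3 held the lowest Cxcl5 level of its group, still above every inguinal one. Cx3cl1 rose from low levels (4.60 ± 0.79, adjusted p = 4.48e-05). Cxcl14, a chemokine of skin and fat stroma, was at 0.891, 0.141 and 0.925 CPM in the lymph node libraries and at 15.3, 17.9 and 23.8 CPM in the inguinal libraries, a log2 difference of -4.88 ± 0.62 (adjusted p = 4.6e-07). Ccl8 also fell (-3.37 ± 0.58, adjusted p = 5.36e-05). Ccl2 (1.14 ± 0.50), Ccl7 (0.31 ± 0.48), Ccl11 (-0.12 ± 0.49), Cxcl1 (-0.55 ± 0.44) and Cxcl10 (0.02 ± 0.44) did not pass, with adjusted p from 0.115 to 1. Ccl2 passed without inguinal library 1 (1.79, adjusted p = 0.0254).

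Several genes better known from leukocytes were high in all lymph node libraries. They were singled out after their values were seen, apart from Blnk. Csf2rb, the common beta chain of the GM-CSF, IL-3 and IL-5 receptors, was at 2320, 2331 and 2975 CPM in the lymph node libraries and at 1.61, 0.778 and 4.96 CPM in the inguinal libraries, a log2 difference of 10.02 ± 0.86 (adjusted p = 1.51e-09). Csf2rb2, its IL-3-specific paralogue, was at 802, 918 and 738 CPM in the lymph node libraries and at 3.96, 1.93 and 4.38 CPM in the inguinal libraries, a log2 difference of 7.90 ± 0.56 (adjusted p = 1.77e-11). The transcripts of the pair are 88.7% identical, so their split is uncertain. Cd72, a B cell surface lectin, was at 107, 75.9 and 105 CPM in the lymph node libraries and at 0.977, 0.622 and 0.555 CPM in the inguinal libraries, a log2 difference of 7.05 ± 0.66 (adjusted p = 2.14e-09). Timd4, a phosphatidylserine receptor of macrophages, was at 73.4, 61.5 and 47.3 CPM in the lymph node libraries and at 0, 0.156 and 0.0308 CPM in the inguinal libraries, a log2 difference of 9.88 ± 1.09 (adjusted p = 5.83e-08). Spic, a transcription factor of red pulp macrophages, was at 65.4, 72.8 and 61.1 CPM in the lymph node libraries and at 0.718, 0.529 and 0.555 CPM in the inguinal libraries, a log2 difference of 6.78 ± 0.61 (adjusted p = 6.14e-10). Blnk, a B cell adaptor, was at 24.8, 13.8 and 27.0 CPM with 1 count in inguinal fat, a ratio of 2120 (95% exact binomial interval 381 to 84000). In the same lymph node libraries Ptprc, as above, was highest in library 1. Cd72, Timd4 and Spic varied by less than 2-fold between those libraries, while Ptprc varied by more than 10-fold. From which cells these transcripts came was not tested.

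Genes of the contractile apparatus were mostly higher in the lymph node: of 12 genes 10 were higher and 2 did not pass (median 4.3). Mylk, myosin light chain kinase, was at 236, 225 and 259 CPM in the lymph node libraries and at 4.60, 4.01 and 3.30 CPM in the inguinal libraries, a log2 difference of 5.92 ± 0.28 (adjusted p = 1.07e-15). Des, desmin, the intermediate filament of reticular and muscle cells, was at 205, 276 and 127 CPM in the lymph node libraries and at 1.78, 0.996 and 2.87 CPM in the inguinal libraries, a log2 difference of 6.75 ± 0.62 (adjusted p = 3.69e-09). Acta2, smooth muscle actin, was at 348, 421 and 206 CPM in the lymph node libraries and at 1.03, 11.9 and 8.70 CPM in the inguinal libraries, a log2 difference of 5.49 ± 0.74 (adjusted p = 3.23e-06). All inguinal values were at or under 11.9 CPM and all lymph node values at or above 127 CPM for these genes. Tagln (5.96 ± 0.70), Synpo2 (5.63 ± 0.69), Tpm2 (4.63 ± 0.49), Lmod1 (3.97 ± 0.82), Myh11 (3.67 ± 0.64), Tpm1 (2.35 ± 0.23) and Myl9 (1.51 ± 0.22) rose as well, with adjusted p from 1.8e-09 to 0.000523. Cnn1 and Actg2, smooth muscle proteins, were at or under 0.339 CPM in every library and did not pass (3.40 ± 1.70 and 1.24 ± 1.41, adjusted p = 0.171 and 0.606).

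Mural markers rose beside them. Rgs5, a regulator of G protein signalling in pericytes, was at 524, 376 and 576 CPM in the lymph node libraries and at 1.18, 2.96 and 2.84 CPM in the inguinal libraries, a log2 difference of 7.73 ± 0.74 (adjusted p = 1.03e-08). Kcnj8, a potassium channel subunit, was at 236, 176 and 210.4 CPM in the lymph node libraries and at 4.02, 5.17 and 3.05 CPM in the inguinal libraries, a log2 difference of 5.67 ± 0.37 (adjusted p = 1.46e-12). Abcc9, its sulphonylurea receptor partner, was at 605, 403 and 505 CPM in the lymph node libraries and at 40.7, 47.9 and 35.9 CPM in the inguinal libraries, a log2 difference of 3.60 ± 0.29 (adjusted p = 5e-11). Mcam was higher from a low level (3.20 ± 0.78, adjusted p = 0.00284). In contrast Itga7 was lower (-1.79 ± 0.56, adjusted p = 0.0208), Cspg4, the NG2 proteoglycan, was at 1.97, 1.67 and 1.60 CPM against 6.58, 1.84 and 1.51 CPM (-0.92 ± 0.51, adjusted p = 0.222), and Higd1b stayed at or under 0.0934 CPM in all 6 libraries. The Itga7 call was lost without lymph node library 2 (-1.80, adjusted p = 0.0569), lymph node library 3 (-1.57, adjusted p = 0.104) or inguinal library 2 (-1.49, adjusted p = 0.0889). Whether the contractile genes and these markers come from the same cells was not tested.

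The fibrillar matrix moved in the opposite direction: of 20 genes 19 were lower in the lymph node and 1 was higher (median -2.27, against 7.32% of all genes called lower). Col3a1, the type III collagen chain, was at 3306, 3343 and 2331 CPM in the lymph node libraries and at 31700, 32830 and 33210 CPM in the inguinal libraries, a log2 difference of -3.44 ± 0.29 (adjusted p = 1.16e-10). Col1a1, a chain of type I collagen, was at 636, 748 and 874 CPM in the lymph node libraries and at 7856, 6280 and 6917 CPM in the inguinal libraries, a log2 difference of -3.22 ± 0.41 (adjusted p = 4.18e-07). Col1a2, the other chain of type I collagen, was at 2339, 2061 and 2271 CPM in the lymph node libraries and at 13300, 11930 and 12680 CPM in the inguinal libraries, a log2 difference of -2.51 ± 0.22 (adjusted p = 2.07e-10). The inguinal levels of the 3 chains were several times those of the lymph node in every pair of libraries. Sparc, a collagen-binding glycoprotein, was at 7670, 6014 and 3848 CPM in the lymph node libraries and at 26440, 27410 and 26740 CPM in the inguinal libraries, a log2 difference of -2.20 ± 0.20 (adjusted p = 6.78e-10). Lox, the collagen cross-linking oxidase, was at 34.7, 22.3 and 29.3 CPM in the lymph node libraries and at 173, 156 and 179.9 CPM in the inguinal libraries, a log2 difference of -2.56 ± 0.23 (adjusted p = 4.26e-10). Fbn1, fibrillin-1 of elastic fibres, was at 328, 257 and 386 CPM in the lymph node libraries and at 1622, 1622 and 1673 CPM in the inguinal libraries, a log2 difference of -2.34 ± 0.23 (adjusted p = 4.11e-09). The other genes that fell ran from Col5a3 (-3.59 ± 0.29) to Postn, periostin (-1.36 ± 0.46). The Postn call was lost in 5 of the 6 fits that left out 1 library, the exception being lymph node library 1, and was weakest without lymph node library 3 (-1.16, adjusted p = 0.155). Tnc, tenascin-C, a glycoprotein of reticular conduits and of remodelling matrix, was at 284, 278 and 199 CPM in the lymph node libraries and at 0.948, 10.1 and 1.79 CPM in the inguinal libraries, a log2 difference of 5.89 ± 0.95 (adjusted p = 4.51e-05). Tnc was the single member that rose, and inguinal library 2 held the highest of its low inguinal levels.

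Among 12 small leucine-rich proteoglycans 2 were higher and 5 lower (median -0.43, or -0.94 with genes of almost no counts set to their bounds). Fmod, fibromodulin, was at 740.0, 1222 and 723 CPM in the lymph node libraries and at 13.9, 10.3 and 6.07 CPM in the inguinal libraries, a log2 difference of 6.47 ± 0.46 (adjusted p = 7.85e-12). Bgn, biglycan, was at 5094, 5194 and 2820 CPM in the lymph node libraries and at 1557, 1950 and 1350 CPM in the inguinal libraries, a log2 difference of 1.43 ± 0.23 (adjusted p = 1.31e-05). Ogn, osteoglycin, was at 268, 218 and 161 CPM in the lymph node libraries and at 1982, 1857 and 2143 CPM in the inguinal libraries, a log2 difference of -3.21 ± 0.22 (adjusted p = 2.07e-12). Fmod and Bgn were higher in every lymph node library than in any inguinal one, and Ogn lower. Aspn (-2.95 ± 0.35), Lum (-1.89 ± 0.24), Omd (-1.91 ± 0.30) and Podn (-1.53 ± 0.26) fell, with adjusted p from 1.3e-07 to 5.04e-05. Dcn, decorin, did not pass (0.08 ± 0.21, adjusted p = 0.863).

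Of 17 basement membrane genes 14 were lower and 1 higher (median -1.6). Col4a5, a type IV collagen chain, was at 8.05, 3.87 and 8.25 CPM in the lymph node libraries and at 107, 108 and 116 CPM in the inguinal libraries, a log2 difference of -4.04 ± 0.27 (adjusted p = 1.54e-12). Lama2, the laminin alpha 2 chain, was at 71.0, 61.1 and 62.0 CPM in the lymph node libraries and at 638, 659.9 and 744 CPM in the inguinal libraries, a log2 difference of -3.39 ± 0.24 (adjusted p = 3.85e-12). Nid1, nidogen-1, was at 366, 351 and 412 CPM in the lymph node libraries and at 2721, 2367 and 3108 CPM in the inguinal libraries, a log2 difference of -2.86 ± 0.22 (adjusted p = 3.07e-11). Lama5, the laminin alpha 5 chain, was at 36.2, 30.4 and 39.8 CPM in the lymph node libraries and at 0.115, 0.187 and 0.740 CPM in the inguinal libraries, a log2 difference of 6.67 ± 0.83 (adjusted p = 3.35e-07). The 2 laminin alpha chains thus moved in opposite directions, with Lama5 under 1 CPM in every inguinal library. The widely expressed chain Col4a1 fell by less (-1.17 ± 0.25, adjusted p = 0.000596), and Col4a2 (-0.72 ± 0.27, adjusted p = 0.0594) and Lama4 (-0.91 ± 0.22, adjusted p = 0.00211) did not pass. Without lymph node library 2 Col4a1 was under the limit on size (-0.98, adjusted p = 0.00869), Col4a2 passed without lymph node library 3 (-1.19, adjusted p = 0.0019) and Lama4 without lymph node library 1 (-1.05, adjusted p = 0.0023).

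Markers of adventitial and interstitial progenitor fibroblasts were lower in the lymph node: 12 of 14 were lower and 2 did not pass (median -3.74). Cd34 and Ly6a, given above, are members of this group too. Pi16, a protease inhibitor that marks adventitial fibroblasts, was at 67.3, 99.1 and 164 CPM in the lymph node libraries and at 1622, 1334 and 1428 CPM in the inguinal libraries, a log2 difference of -3.73 ± 0.33 (adjusted p = 5.72e-10). Dpp4, the dipeptidylpeptidase CD26 of interstitial progenitors, was at 33.1, 35.4 and 43.2 CPM in the lymph node libraries and at 804, 575 and 767 CPM in the inguinal libraries, a log2 difference of -4.26 ± 0.25 (adjusted p = 1.12e-13). Anxa3, annexin A3, was at 38.2, 47.7 and 62.7 CPM in the lymph node libraries and at 956, 817 and 1024 CPM in the inguinal libraries, a log2 difference of -4.23 ± 0.26 (adjusted p = 1.97e-13). Each inguinal value was far above every lymph node value. Sema3c, a secreted semaphorin, was at 31.2, 28.3 and 41.3 CPM in the lymph node libraries and at 500.4, 328 and 527 CPM in the inguinal libraries, a log2 difference of -3.75 ± 0.21 (adjusted p = 3.94e-14). Ly6c1, a GPI-anchored surface protein, was at 115, 119 and 81.2 CPM in the lymph node libraries and at 1496, 1432 and 1514 CPM in the inguinal libraries, a log2 difference of -3.81 ± 0.26 (adjusted p = 2.24e-12). Wnt2, a Wnt ligand, was at 4.67, 6.44 and 4.48 CPM in the lymph node libraries and at 109.6, 91.0 and 93.9 CPM in the inguinal libraries, a log2 difference of -4.24 ± 0.30 (adjusted p = 5.62e-12). No lymph node library came near an inguinal one for these either. Efhd1 (-4.57 ± 0.46), Creb5 (-4.28 ± 0.37), Bmp7 (-2.82 ± 0.26) and Cd55 (-2.78 ± 0.20) complete the 12, with adjusted p from 3.42e-12 to 1.25e-08. Limch1 (-0.17 ± 0.26, adjusted p = 0.714) and Dact2 (-0.97 ± 0.74, adjusted p = 0.408) did not pass.

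Of 20 adipogenic genes 11 were lower and 1 higher (median -1.21). Pparg (ENSMUSG00000000440, chr6:115360951-115490399, plus strand), the nuclear receptor that drives adipocyte differentiation, was at 2.80, 0.932 and 1.56 CPM against 41.2, 85.2 and 44.0 CPM (-5.01 ± 0.80, adjusted p = 2.87e-05). Ebf2, a factor of adipocyte precursors, was at 35.7, 24.3 and 51.3 CPM in the lymph node libraries and at 314, 279.9 and 326 CPM in the inguinal libraries, a log2 difference of -3.05 ± 0.36 (adjusted p = 1.68e-07). Agt, angiotensinogen, was at 7.81, 2.20 and 5.12 CPM in the lymph node libraries and at 60.8, 82.9 and 77.0 CPM in the inguinal libraries, a log2 difference of -3.87 ± 0.35 (adjusted p = 7.78e-10). Lpl, lipoprotein lipase, was at 1316, 1027 and 799 CPM in the lymph node libraries and at 2204, 3150 and 2464 CPM in the inguinal libraries, a log2 difference of -1.32 ± 0.28 (adjusted p = 0.000604). Inguinal library 2 held the highest Pparg, Cd36, Fabp4 and Lpl levels of the 6. Fabp5 (-2.59 ± 0.47), Zfp423 (-1.87 ± 0.34), Zfp521 (-1.48 ± 0.26), Gdf10 (-1.25 ± 0.28) and Srebf1 (-1.16 ± 0.31) fell too, and Klf15 rose (1.82 ± 0.55), with adjusted p from 4.81e-05 to 0.0162. Srebf1 lost its call without lymph node library 3 (-0.89, adjusted p = 0.0574), and Klf15 without lymph node library 3 (1.44, adjusted p = 0.103), inguinal library 1 (1.73, adjusted p = 0.0653) or inguinal library 3 (1.45, adjusted p = 0.103). Members that did not pass include Cebpb (0.13 ± 0.44, adjusted p = 0.899), Cebpd (-0.59 ± 0.28, adjusted p = 0.143) and Ebf1 (-0.30 ± 0.36, adjusted p = 0.631). Of 8 markers of mature adipocytes Plin4 was lower (-4.51 ± 0.82, adjusted p = 0.000156) and Plin1 higher (3.29 ± 0.69, adjusted p = 0.000578). Their summed levels overlapped (115, 38.4 and 130 against 110, 288 and 148 CPM), most of it Car3, and Adipoq stayed at or under 0.586 CPM in every library.

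Retinoid genes moved both ways, with 6 of 18 higher and 5 lower, against 7.71% and 7.32% of all genes (median 0.27, or 0.53 with bounds). Aldh1a3, a retinaldehyde dehydrogenase, was at 9.07, 16.2 and 15.9 CPM in the lymph node libraries and at 165, 107 and 148 CPM in the inguinal libraries, a log2 difference of -3.35 ± 0.26 (adjusted p = 3.32e-11). Rdh10, which makes retinaldehyde, was at 22.3, 32.1 and 42.2 CPM in the lymph node libraries and at 7.62, 7.72 and 8.48 CPM in the inguinal libraries, a log2 difference of 2.02 ± 0.25 (adjusted p = 2.06e-07). Lrat, which esterifies retinol for storage, was at 10.2, 14.8 and 4.84 CPM in the lymph node libraries and at 0.661, 0.529 and 0.370 CPM in the inguinal libraries, a log2 difference of 4.25 ± 0.61 (adjusted p = 2.59e-06). Aldh1a1 fell with Aldh1a3 (-1.31 ± 0.22, adjusted p = 2.97e-05), and Cyp26b1, which degrades retinoic acid, rose (2.28 ± 0.42, adjusted p = 0.000103). Dhrs9 (-4.28 ± 0.41, adjusted p = 1.69e-09) fell as well, to 0.533 CPM or less.

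Of 18 Wnt pathway genes 6 were higher and 6 lower, against 7.71% and 7.32% of all genes (median 0.37). Besides Wnt2, Sfrp4, a secreted Wnt antagonist, was at 45.7, 28.9 and 45.7 CPM in the lymph node libraries and at 611, 398 and 499 CPM in the inguinal libraries, a log2 difference of -3.65 ± 0.24 (adjusted p = 9.5e-13). Dkk3, a divergent member of the Dickkopf family, was at 144, 132 and 169 CPM in the lymph node libraries and at 26.7, 9.49 and 4.96 CPM in the inguinal libraries, a log2 difference of 3.44 ± 0.33 (adjusted p = 2.86e-09). Sfrp2 (-1.57 ± 0.27), Dkk2 (-1.64 ± 0.31) and Wnt10b (-4.46 ± 0.78) fell, while the agonists Rspo1 (2.21 ± 0.43) and Rspo3 (1.64 ± 0.39) rose, with adjusted p from 5.17e-05 to 0.00219. Among 22 TGF-beta and BMP pathway genes 5 were higher and 10 lower (median -0.36). Grem1, given above, had the largest rise. Fstl1, a follistatin-like glycoprotein, was at 1541, 1404 and 1514 CPM in the lymph node libraries and at 6325, 6994 and 6787 CPM in the inguinal libraries, a log2 difference of -2.17 ± 0.19 (adjusted p = 2.07e-10). Chrdl1, a BMP antagonist, was at 839.7, 671 and 523 CPM in the lymph node libraries and at 374, 209 and 248 CPM in the inguinal libraries, a log2 difference of 1.29 ± 0.25 (adjusted p = 0.000266). Tgfb2 (-2.05 ± 0.21, adjusted p = 6.34e-09) and Bmper (-3.15 ± 0.50, adjusted p = 2.52e-05) fell, and Tgfb3 did not pass (0.17 ± 0.17, adjusted p = 0.56). Several other calls of this list were lost when 1 library was left out. Of those higher, Bmp3 was lost without inguinal library 2 (0.89, adjusted p = 0.079) and Inhbb without lymph node library 3 (0.92, adjusted p = 0.212). The low-level Nog was lost without inguinal library 1 (5.97, adjusted p = 0.0591). Of those lower, Bmp2 was lost without inguinal library 1 (-1.18, adjusted p = 0.0948) and Nbl1 without lymph node library 2 (-0.999, adjusted p = 0.0814).

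Of 10 insulin-like growth factor genes 4 were higher and 1 lower, against 7.71% and 7.32% of all genes (median 0.41). Igfbp3, the main circulating binding protein, was at 271, 231 and 534 CPM in the lymph node libraries and at 20.8, 24.2 and 29.7 CPM in the inguinal libraries, a log2 difference of 3.79 ± 0.34 (adjusted p = 7.39e-10). Igfbp6, which prefers IGF2, was at 39.3, 46.2 and 44.1 CPM in the lymph node libraries and at 815, 697 and 900.4 CPM in the inguinal libraries, a log2 difference of -4.22 ± 0.33 (adjusted p = 3.9e-11). Igf1r, the receptor, was at 58.5, 68.0 and 74.4 CPM in the lymph node libraries and at 20.5, 21.7 and 22.1 CPM in the inguinal libraries, a log2 difference of 1.64 ± 0.24 (adjusted p = 4.32e-06). Igfbp3 and Igfbp6 moved in opposite directions, and Igf1 itself did not pass (-0.17 ± 0.19, adjusted p = 0.614). Igfbp7 rose (1.90 ± 0.29, adjusted p = 6.81e-06) but overlaps Polr2b on the other strand.

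Hox genes record position along the body axis. Of 20 Hox genes of paralogue groups 1 to 8 tested, 3 were higher and 1 lower, and of 8 posterior Hox genes tested (groups 9 and up) 3 were higher and 2 lower, against 7.71% and 7.32% of all genes; the medians were 0.5 and -0.92. Hoxd8, of the D cluster, was at 19.3, 16.3 and 41.7 CPM in the lymph node libraries and at 3.48, 2.61 and 1.76 CPM in the inguinal libraries, a log2 difference of 3.30 ± 0.43 (adjusted p = 4.78e-07). Hoxd9, its neighbour, was at 4.15, 6.04 and 3.91 CPM in the lymph node libraries and at 0.603, 0.0622 and 0.0925 CPM in the inguinal libraries, a log2 difference of 4.18 ± 0.97 (adjusted p = 0.00162). Hoxc10, of the C cluster, was at 12.5, 9.23 and 11.9 CPM in the lymph node libraries and at 36.4, 40.4 and 34.8 CPM in the inguinal libraries, a log2 difference of -1.73 ± 0.53 (adjusted p = 0.0174). Hoxa10 (-1.34 ± 0.50, adjusted p = 0.0602) and Hoxa9 (-1.05 ± 0.56, adjusted p = 0.206) did not pass. Hoxd8 and Hoxd9 were thus higher in the lymph node, while Hoxc10 was lower. Hoxa10 passed in 6 of the 14 alternatives, DESeq2 (-1.29, adjusted p = 0.0399) and the 6 libraries alone (-1.30, adjusted p = 0.000888) among them. Several of the other calls in these counts rest on low levels and were lost when 1 library was left out: Hoxb9 (3.73, adjusted p = 0.103), Hoxc11 (-4.49, adjusted p = 0.0514) and Hoxc6 (-1.45, adjusted p = 0.0522) without lymph node library 1, and Hoxd3 (6.20, adjusted p = 0.0681) without inguinal library 1. Without lymph node library 3 both posterior calls in the lower direction were lost, Hoxc11 at -4.55, adjusted p = 0.0526. The Hoxc10 call was lost without lymph node library 2 (-1.61, adjusted p = 0.0675), lymph node library 3 (-1.78, adjusted p = 0.0516) or inguinal library 2 (-1.67, adjusted p = 0.0505). Overlapping gene models make the counts of single Hox genes uncertain.

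Of 39 regional transcription factors tested 6 were higher and 10 lower, against 7.71% and 7.32% of all genes (median -0.67, or -0.7 with bounds). Nr2f2, the orphan nuclear receptor COUP-TFII, was at 182, 155 and 238 CPM in the lymph node libraries and at 25, 17.6 and 17.7 CPM in the inguinal libraries, a log2 difference of 3.25 ± 0.24 (adjusted p = 6.94e-12). Gata6, a GATA factor, was at 35.5, 25.1 and 76.3 CPM in the lymph node libraries and at 8.02, 7.69 and 6.04 CPM in the inguinal libraries, a log2 difference of 2.65 ± 0.32 (adjusted p = 1.7e-07). Osr2, an odd-skipped factor, was at 7.25, 3.5 and 6.97 CPM in the lymph node libraries and at 137, 106 and 125 CPM in the inguinal libraries, a log2 difference of -4.37 ± 0.35 (adjusted p = 5.89e-11). Nr2f1 (3.94 ± 0.45), Foxf1 (6.52 ± 0.70) and Meox2 (2.15 ± 0.36) rose, and Osr1 (-1.39 ± 0.24), Tbx5 (-2.17 ± 0.39) and Twist1 (-1.79 ± 0.38) fell, with adjusted p from 1.74e-08 to 0.00062. Tbx15 (-0.35 ± 0.49, adjusted p = 0.696) and Shox2 (-0.73 ± 0.55, adjusted p = 0.398) did not pass. Foxf1 and Nr2f1 overlap other genes whose counts came to 514% and 52.3% of theirs. Some of the other calls depended on the fit. Tbx18, called higher, was lost without lymph node library 3 (0.74, adjusted p = 0.211). Of those lower, Prrx2 was lost without that library (-1.34, adjusted p = 0.146) and Lmx1b without lymph node library 2 (-2.82, adjusted p = 0.117). Irx5 was lost with DESeq2 (-4.94, adjusted p = 0.346). The uncalled Tcf21 passed without lymph node library 1 (-5.61, adjusted p = 0.00395).

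Of 12 proliferation genes 9 were lower in the lymph node and 3 did not pass (median -2.7). Ccnb1, cyclin B1, was at 1.81, 0.960 and 0.0711 CPM in the lymph node libraries and at 24.2, 12.9 and 14.2 CPM in the inguinal libraries, a log2 difference of -4.15 ± 0.60 (adjusted p = 5.39e-06). Top2a, topoisomerase II alpha, was at 6.79, 3.61 and 1.42 CPM in the lymph node libraries and at 41.1, 16.7 and 19.2 CPM in the inguinal libraries, a log2 difference of -2.70 ± 0.53 (adjusted p = 0.000315). Mki67, the Ki-67 antigen, was at 2.55, 0.904 and 0.249 CPM in the lymph node libraries and at 19.3, 6.38 and 6.32 CPM in the inguinal libraries, a log2 difference of -3.10 ± 0.61 (adjusted p = 0.00034). Lymph node library 3 was the lowest and inguinal library 1 the highest for all 3. Rrm2, a subunit of ribonucleotide reductase used in S phase, fell (-1.29 ± 0.32, adjusted p = 0.0029), while the S phase genes Mcm5 (0.45 ± 0.36, adjusted p = 0.441) and Tyms (0.14 ± 0.21, adjusted p = 0.711) did not pass. Mcm5 was called higher without inguinal library 2 (1.08, adjusted p = 0.04). Among the other genes called lower, Aurkb (-1.55, adjusted p = 0.0593) and Bub1 (-2.05, adjusted p = 0.0656) lost the call without inguinal library 1. Plk1 lost it without lymph node library 3 (-2.21, adjusted p = 0.0675). Ccna2, also called lower, overlaps Exosc9 on the other strand, whose counts came to 1190% of its own.

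Of 12 immediate-early and heat shock genes, which tissue digestion is known to induce, 4 were lower and 8 did not pass (median -0.46). Their summed level was 10600, 3770 and 11100 CPM in the lymph node and 13000, 9830 and 10600 CPM in inguinal fat, so lymph node library 2 stood below the other 5. Ier2, an immediate-early factor, was at 52.6, 30.1 and 33.6 CPM in the lymph node libraries and at 221, 222 and 230.4 CPM in the inguinal libraries, a log2 difference of -2.53 ± 0.45 (adjusted p = 0.000103). Junb, an AP-1 subunit, was at 40.5, 27.5 and 20.4 CPM in the lymph node libraries and at 169, 124 and 152 CPM in the inguinal libraries, a log2 difference of -2.33 ± 0.53 (adjusted p = 0.00167). Junb overlaps Prdx2 on the other strand. Fosb (-1.52 ± 0.45, adjusted p = 0.0152) lost its call without lymph node library 2 (-1.12, adjusted p = 0.0803) or inguinal library 1 (-1.34, adjusted p = 0.0626). Atf3 (-1.36 ± 0.48, adjusted p = 0.0421) lost it without lymph node library 2 (-0.85, adjusted p = 0.0927), inguinal library 1 (-1.12, adjusted p = 0.154) or inguinal library 3 (-1.38, adjusted p = 0.0768). Fos (-0.41 ± 0.28, adjusted p = 0.332) and Egr1 (0.05 ± 0.26, adjusted p = 0.941) did not pass.

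**Figure D4:**
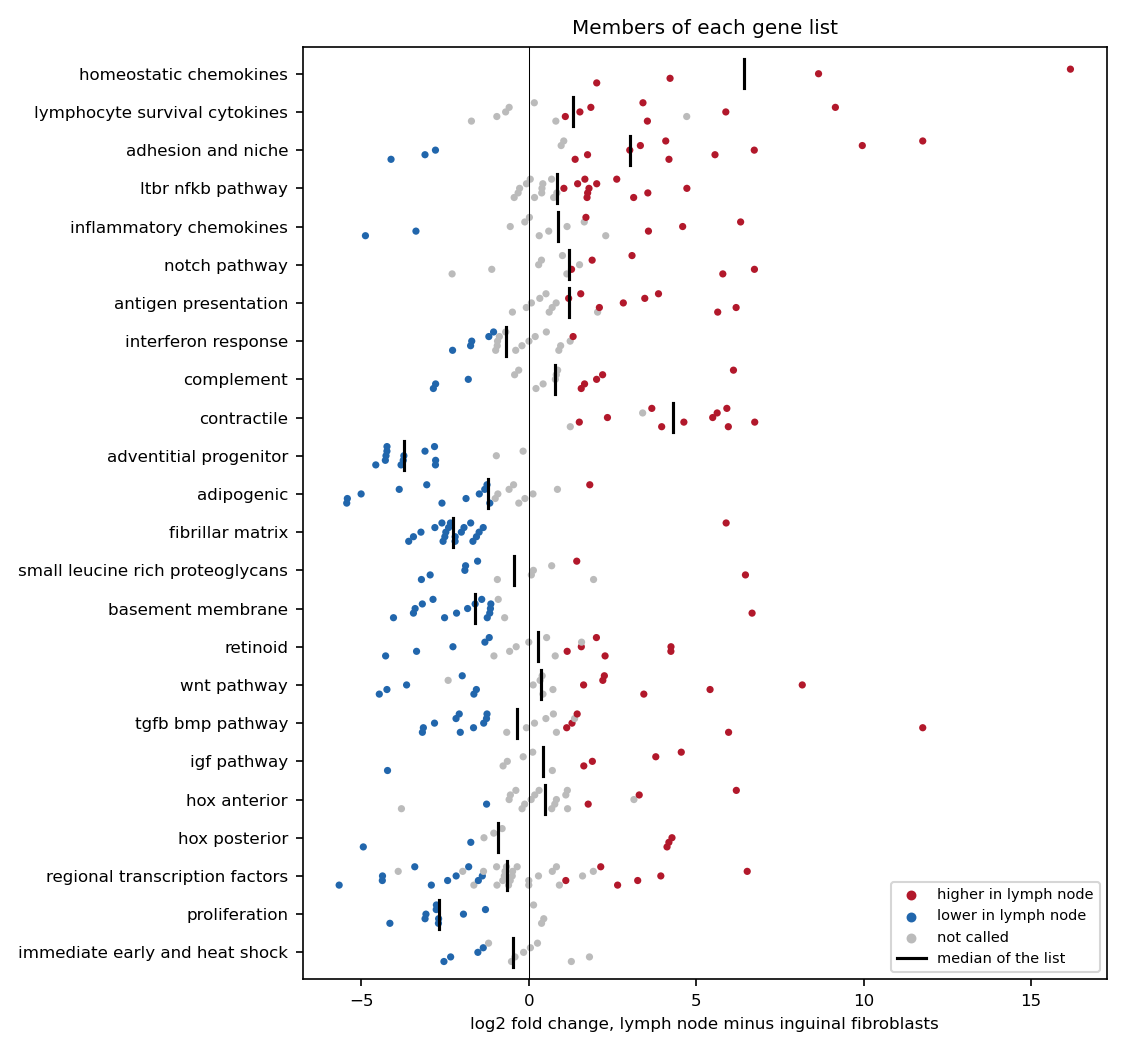
Log2 difference (lymph node minus inguinal fat, horizontal axis) of every tested member of 24 gene lists (vertical axis), coloured by call, with the median of each list as a black bar. Homeostatic chemokines and contractile genes lie to the right (medians 6.44 and 4.3), adventitial progenitor, proliferation and fibrillar matrix genes to the left (medians -3.74, -2.7 and -2.27).

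Other genes with wide gaps were picked after their values were seen. Clu, the chaperone clusterin, was at 12760, 15690 and 13120 CPM in the lymph node libraries and at 43.5, 29.1 and 51.0 CPM in the inguinal libraries, a log2 difference of 8.39 ± 0.47 (adjusted p = 9.05e-14). Stc1, the glycoprotein stanniocalcin-1, was at 619, 228 and 352 CPM in the lymph node libraries and at 1.72, 1.37 and 0.925 CPM in the inguinal libraries, a log2 difference of 8.21 ± 0.62 (adjusted p = 6.55e-11). Cldn1, a tight junction claudin, was at 470.3, 383 and 204 CPM in the lymph node libraries and at 4.63, 1.87 and 0.709 CPM in the inguinal libraries, a log2 difference of 7.19 ± 0.42 (adjusted p = 1.89e-13). Pla2g2d, a secreted phospholipase of lymphoid tissue, was at 72.2, 58.3 and 124 CPM in the lymph node libraries and at 0.948, 0.840 and 0.493 CPM in the inguinal libraries, a log2 difference of 6.79 ± 0.73 (adjusted p = 3.22e-08). In each, every lymph node value was many times every inguinal value. Il1r2, the interleukin-1 decoy receptor, was at 53.0, 55.3 and 46.4 CPM in the lymph node libraries and at 1101, 956 and 996 CPM in the inguinal libraries, a log2 difference of -4.30 ± 0.41 (adjusted p = 3.07e-09). Ackr3, the scavenging CXCL12 receptor, was at 73.9, 105 and 89.5 CPM in the lymph node libraries and at 1398, 1245 and 1345 CPM in the inguinal libraries, a log2 difference of -3.89 ± 0.31 (adjusted p = 5.37e-11). Has1, a hyaluronan synthase, was at 47.2, 32.8 and 21.8 CPM in the lymph node libraries and at 1225, 433 and 614 CPM in the inguinal libraries, a log2 difference of -4.48 ± 0.58 (adjusted p = 1.36e-06). Ackr3 was thus low in the lymph node libraries, in which its ligand gene Cxcl12 was high.

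To place these differences, each group was also set against the equal-weight mean of the fibroblasts of the 7 other tissues. In the lymph node 4023 genes differed from that mean (15.7% of 25705, with 8.44% higher and 7.21% lower), and in inguinal fat 1368 (5.32%, with 2.38% higher and 2.94% lower). These comparisons share their reference and use the same 6 libraries as above, so the values are placed side by side as a description. For Ccl21a the difference from the 7 tissues was 11.18 (adjusted p = 1.56e-08) for the lymph node and -5.0 (adjusted p = 0.104) for inguinal fat, and the 7 means ran from 0.422 CPM (brown adipose) to 1545 CPM (spleen). Ccl19 gave 8.93 (adjusted p = 2.46e-13) for the lymph node and 0.28 (adjusted p = 0.91) for inguinal fat, with means from 3.13 CPM (bone-associated) to 401 CPM (spleen). Lepr gave 6.87 (adjusted p = 3.88e-23) for the lymph node and -3.31 (adjusted p = 4.95e-10) for inguinal fat, with means from 1.22 CPM (epididymal adipose) to 56.8 CPM (spleen). The spleen had the highest mean of the 7 for all 3 genes, and each of these means was below the lymph node level. Csf2rb gave 9.09 (adjusted p = 1.38e-15) for the lymph node and -0.93 (adjusted p = 0.376) for inguinal fat, with means from 1.19 CPM (brown adipose) to 40.7 CPM (omentum). Il7 gave 4.98 (adjusted p = 1.65e-16) for the lymph node and -0.91 (adjusted p = 0.0929) for inguinal fat, with means from 1.84 CPM (epididymal adipose) to 13.5 CPM (spleen). Clu gave 5.84 (adjusted p = 4.99e-19) for the lymph node and -2.56 (adjusted p = 1.19e-06) for inguinal fat, with means from 41.7 CPM (epididymal adipose) to 1433 CPM (spleen). For Ccl21a, Ccl19, Il7 and Csf2rb the lymph node differed from the 7 tissues and inguinal fat did not pass the test; for Lepr and Clu both did, in opposite directions. The inguinal difference passed for Il7 without inguinal library 2 (-1.30, adjusted p = 0.0455) and for Ccl21a with DESeq2 (-5.09, adjusted p = 6.91e-06).

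Cxcl13 was called on both sides, 3.90 (adjusted p = 3.88e-11) for the lymph node and 1.87 (adjusted p = 0.000191) for inguinal fat, and the omentum mean exceeded both (from 4.42 CPM (bone-associated) to 3148 CPM (omentum)). Among the genes lower in the lymph node, Pi16 gave -2.15 (adjusted p = 2.55e-07) for the lymph node and 1.58 (adjusted p = 1.26e-06) for inguinal fat, and Dpp4 -2.53 (adjusted p = 2.64e-11) for the lymph node and 1.73 (adjusted p = 4.77e-10) for inguinal fat. Col3a1 gave -1.66 (adjusted p = 1.01e-06) for the lymph node and 1.79 (adjusted p = 7.69e-09) for inguinal fat, and Pparg -1.84 (adjusted p = 0.0284) for the lymph node and 3.16 (adjusted p = 4.94e-06) for inguinal fat. For these 4 genes the lymph node lay below and inguinal fat above the mean of the other tissues, and both differences passed. Single tissues reached the same levels. In brown adipose fibroblasts Pi16 was at 1754, 2244 and 1973 CPM, Dpp4 at 762, 818 and 637 CPM. Col3a1 was at 32650, 29380 and 27090 CPM there, so brown fat exceeded or overlapped the inguinal levels of each. Pparg was as low as in the lymph node in the pancreas (1.84 and 1.40 CPM) and in bone-associated fibroblasts (0.855, 1.93 and 0.0790 CPM). The lymph node difference of Pparg was lost without lymph node library 2 (-1.53, adjusted p = 0.143) or 3 (-1.77, adjusted p = 0.12). Akr1c18 gave -0.73 (adjusted p = 0.425) for the lymph node and 5.12 (adjusted p = 1.46e-09) for inguinal fat, and Pcdh20 -0.67 (adjusted p = 0.163) for the lymph node and 3.97 (adjusted p = 2.59e-12) for inguinal fat. Il1r2 was above that mean on both sides, 2.25 (adjusted p = 1.12e-08) for the lymph node and 6.55 (adjusted p = 7.46e-18) for inguinal fat.

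Several positional genes were above the mean of the 7 other tissues on both sides. Hoxc10 gave 5.80 (adjusted p = 4.17e-12) for the lymph node and 7.53 (adjusted p = 7.94e-14) for inguinal fat, and the 7 means ran from 0 CPM (spleen) to 40.3 CPM (bone-associated). Hoxa10 gave 5.49 (adjusted p = 7.7e-12) for the lymph node and 6.83 (adjusted p = 4.15e-13) for inguinal fat, with means from 0 CPM (brown adipose) to 34.9 CPM (bone-associated). Tbx15 gave 4.64 (adjusted p = 4e-12) for the lymph node and 4.98 (adjusted p = 8.99e-12) for inguinal fat, with means from 0.321 CPM (epididymal adipose) to 51.2 CPM (brown adipose). Shox2 gave 4.42 (adjusted p = 5.53e-10) for the lymph node and 5.15 (adjusted p = 1.52e-10) for inguinal fat, with means from 0.0335 CPM (epididymal adipose) to 51.3 CPM (bone-associated). Both tissues were thus above that mean for these 4 genes, although the bone-associated or brown adipose mean reached a similar or higher level for each, and the widest gap between the 2 was the -1.73 of Hoxc10. The class I gene H2-K1 was likewise above the 7 tissues in both, 1.42 (adjusted p = 6.48e-11) for the lymph node and 1.34 (adjusted p = 1.67e-09) for inguinal fat.

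**Figure D5:**
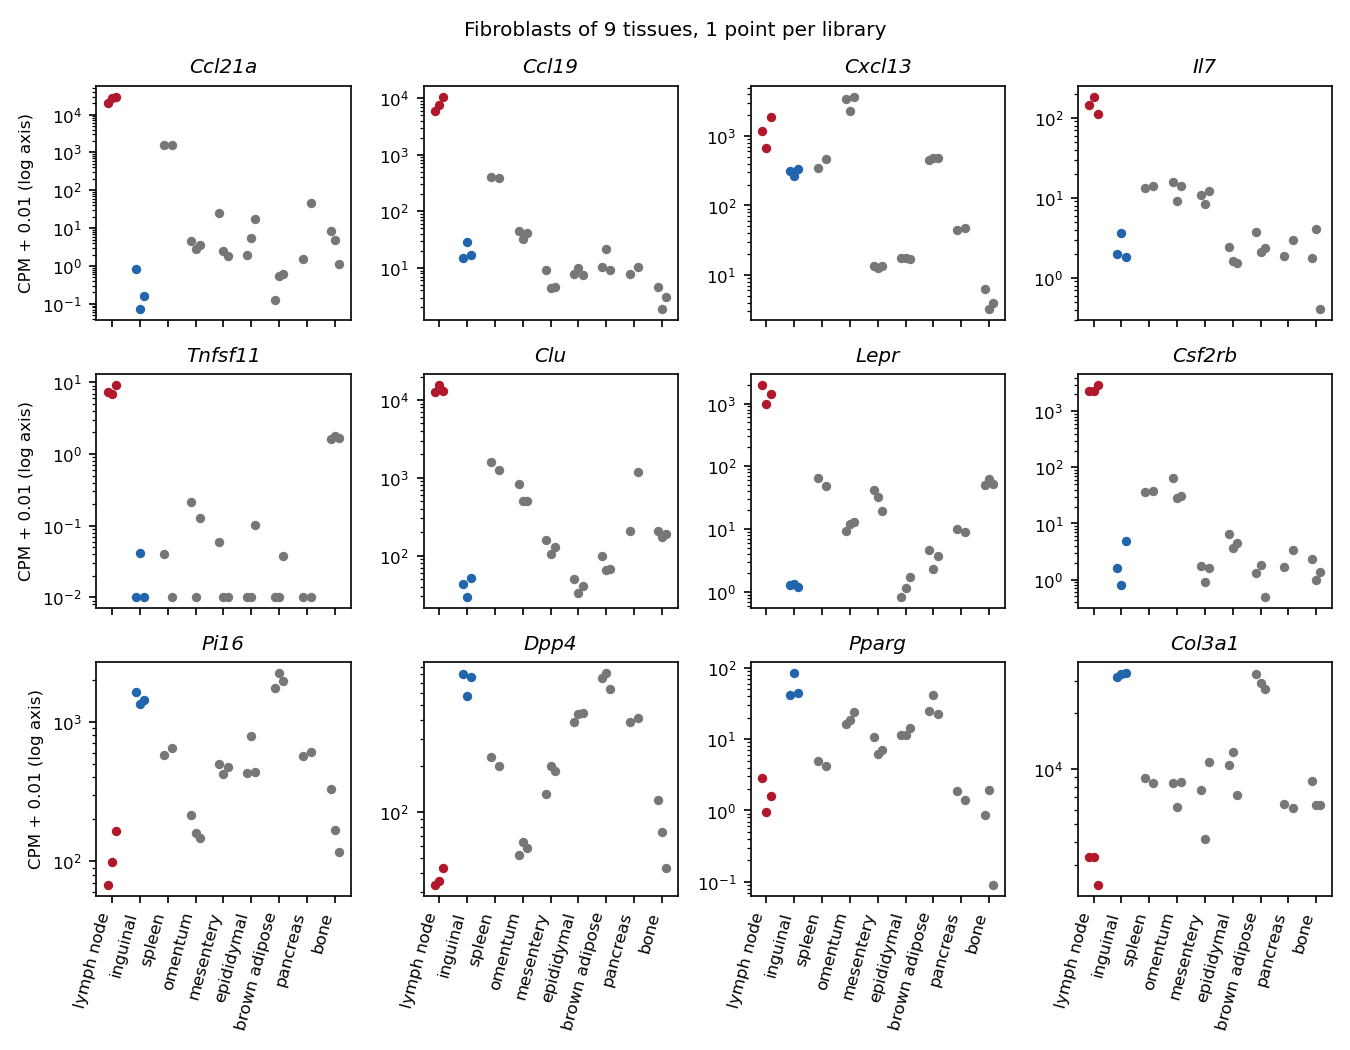
CPM on a log axis of 12 genes in the fibroblasts of 9 tissues (horizontal axis), 1 point per library, with lymph node and inguinal libraries coloured and the other 7 tissues in grey. Ccl21a, Ccl19, Il7, Csf2rb and Lepr are highest in the lymph node, Cxcl13 is highest in the omentum, and Pi16, Dpp4, Col3a1 and Pparg are lower in the lymph node than in inguinal fat.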

How the data were processed

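Polyadenylated RNA of 34 libraries of sorted mouse cells was measured, 25 of them fibroblast libraries (9 tissues) and 9 mesothelial. The deposited files hold whole-number read counts per gene and library, described per the file headers as unique alignments to a gene model. Salmon and GRCm38 are named per the submitters' processing notes, and which step gave the counts is not given in the sources used here. Of 51826 gene identifiers 193 had no symbol.

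Counts of all 34 libraries, in 12 groups sharing 1 estimate of the spread, were fitted with edgeR 4.0.16 in R 4.3.3 (filterByExpr with a minimum count of 10, TMM, robust quasi-likelihood test). Calls required an adjusted p (Benjamini-Hochberg, all genes tested) under 0.05 together with a log2 difference of at least 1. The standard error is the absolute log2 difference divided by the square root of the F statistic. Alternatives were DESeq2 1.42.0, its size factors, other filters, other sets of libraries, a replicate block and leaving out each library. Intervals and floors cover counting error only, since reads are not independent molecules.

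Genes were named by a rule: the sort markers; per direction the 15 largest calls with at least 20 CPM in the higher group and no overlap between groups; up to 4 called members of each list by adjusted p; and all members of 4 lists and of the NF-kappaB receptors and factors. The 15 largest calls were taken without accession and clone names and without genes on the cell type marker lists. Other named genes were chosen after their values were seen. The members, lists and motifs were chosen with earlier results of these data known. Counts were also simulated from each gene's mean over all 34 libraries with the fitted spread (24309 genes tested). Only genes changed on purpose in the lymph node, none of low level, differed between groups. Of 50 genes changed 1.5-, 2-, 4- and 8-fold each, 0, 15, 40 and 47 were called, with 2 false calls. The limit on size held back calls at 1.5- and 2-fold from the outset. Far fewer genes differed than in the data, so the 2 false calls give no error rate for the real calls. Sequences were read and aligned with Python 3.11.15 and Biopython 1.88, and figures drawn with matplotlib 3.10.9.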

Additional observations from a re-analysis of the deposited data

How the results depend on the processing

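The count of 3865 genes that differed between lymph node and inguinal fibroblasts stayed within 1.5 times under every alternative run: 3933 with the 25 fibroblast libraries only, 3669 with the 6 libraries compared, 3880 with DESeq2's size factors, 4192 with DESeq2, 4417 without a filter on low counts and 3610 with a minimum count of 50. Between 78% and 97.5% of the 3865 calls were kept, depending on the alternative. Leaving out 1 library gave 3219 to 3820 calls, 1662 to 2037 higher and 1557 to 1783 lower. For the lymph node against the 7 other tissues the same range was 3204 to 3843, with 1685 to 2138 higher and 1519 to 1705 lower, and for inguinal fat 1113 to 1172, with 533 to 559 higher and 577 to 632 lower. The 1 count that moved by more than 1.5 times was that of inguinal fat against the 7 tissues, 1368 (611 higher, 757 lower), which became 2281 (1120 higher, 1161 lower) without a filter, where 46027 genes were tested in place of 25705. Of 188 called genes, named by the rule or chosen after their values were seen, 169 kept the call in every alternative that tested them. The other 19 lost it in at least 1. Genes chosen for wide gaps raise the share kept. List members outside the rule, such as Acta2 and Postn, are not in these counts.

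Replicate numbers are shared between the groups only as numbers: the correlations of the deviations of same-numbered libraries from their group means were -0.121, -0.022 and -0.012. With the number as a replicate block the comparison gave 3835 calls over all 34 libraries and 3719 in the 6 libraries alone, against 3865 and 3669 without it, and the comparisons with the 7 tissues gave 3954 and 1345. No library of the 6 correlated best with its own number. In the 6 libraries alone the block left several genes without a call by edgeR's quasi-likelihood test. Among them were Dll4 (6.18, adjusted p = 0.15), Acta2 (5.86, adjusted p = 0.0692), Tagln (6.12, adjusted p = 0.0783) and Jag1 (1.01, adjusted p = 0.11). In that fit Tnfrsf1b was under the limit on size (0.95, adjusted p = 0.0133).

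Depth limits the low genes: 1 count was worth 0.0282 to 0.0356 CPM, and for genes with 0 to 3 counts in a group only a bound or a counting interval is given. With 3 libraries a group, a gene that did not pass may still differ. Leaving out lymph node library 2 moved the median log2 difference of all genes from -0.048 to -0.106.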
